A study of Mus musculus with 5 samples.

Results

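The p53 genes described here are 10: Trp53, which encodes p53, its inhibitors Mdm2 and Mdm4, and the p53 targets Bbc3, Cdkn1a, Ccng1, Phlda3, Zmat3, Aen and Trp53inp1. They were taken by gene symbol from count tables of 35976 genes, and all 10 had a row. RNA was sequenced from mature CD8 single-positive (SP) thymocytes purified by flow cytometry, the CD8 lineage cells at the end of their development in the thymus. Of the 5 libraries, 2 came from Runx3 +/+ (wild-type) mice and 3 from Runx3 +/WRPW mice, which carry the allele named WRPW on 1 copy of Runx3. Runx3 is the transcription factor that maintains the CD8 lineage, and WRPW is, as background, a peptide motif by which other repressors bind Groucho/TLE corepressors. The labels name no treatment or age and leave unsaid whether each library is another animal, so p-values here reflect only how far these libraries differ, possibly for technical reasons. The group was chosen by the measured rise of Bbc3 in Runx3 +/WRPW in this same comparison. The values of Bbc3 are therefore a description with no test, and the question is whether the other 9 genes moved with it.

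As background, p53 is a transcription factor held at low activity by Mdm2, a ubiquitin ligase that marks it for degradation, and by the related protein Mdm4. DNA damage and other stress release p53, which then induces genes of cell cycle arrest (Cdkn1a, encoding p21) and of cell death (Bbc3, encoding PUMA), and also Mdm2, closing a feedback loop. PUMA is a BH3-only protein that binds the survival proteins of the Bcl-2 family, and thymocytes lacking it are known to resist death after irradiation and after glucocorticoids. Bbc3 can also be induced without p53, for example by FoxO factors.

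The sequences near the starts of these genes are printed to show which of them carry a match to the p53 element. Promoter windows of 250 bases before to 50 bases after an annotated start were available from RefSeq (GRCm38.p6, the assembly of mm10) for 8 of the 10 genes, in 13 windows. Zmat3 and Trp53inp1 had no window. Each was searched for the p53 consensus element, a pair of adjacent decamers of 20 bases in all, with the core letters CNNG intact in both and at most 3 mismatches. The element reads the same on both strands. The mismatch limit was set with the Bbc3 sequence known. An element was present at 5 of the 8 genes (Bbc3, Cdkn1a, Ccng1, Aen and Trp53), against 1.63% of all 27025 genes with a window. The genes are shown 5′ to 3′ along their own strand, with the element in capitals and 5 flanking bases on each side:
Bbc3: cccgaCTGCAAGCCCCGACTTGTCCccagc
Cdkn1a: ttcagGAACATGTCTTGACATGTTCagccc
Ccng1: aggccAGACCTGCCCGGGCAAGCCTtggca
Aen: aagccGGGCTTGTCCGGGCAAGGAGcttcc
Trp53: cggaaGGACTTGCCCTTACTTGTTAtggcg

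The elements of Cdkn1a (chr17:29090928-29090947, plus strand) and Ccng1 (chr11:40755462-40755481, minus strand) had 1 mismatch each. Those of Bbc3 (chr7:16309486-16309505, plus strand), Aen (chr7:78895937-78895956, plus strand) and Trp53 (chr11:69580284-69580303, plus strand) had 3. The Bbc3 element began 97 bases before the start of the first of 3 annotated windows. The windows of Mdm2, Mdm4 and Phlda3 held no such element, which says only that these letters are not in these windows. The 250 bases before that Bbc3 start (chr7:16309333-16309582, plus strand) are printed because Bbc3 is the member the comparison turns on, with the p53 element in capitals:
Bbc3: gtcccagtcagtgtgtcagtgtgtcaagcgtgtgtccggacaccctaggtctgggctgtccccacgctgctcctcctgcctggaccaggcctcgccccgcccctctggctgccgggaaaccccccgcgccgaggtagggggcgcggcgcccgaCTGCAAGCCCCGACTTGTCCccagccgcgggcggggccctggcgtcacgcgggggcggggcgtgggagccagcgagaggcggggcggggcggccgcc

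The full 300-base window of that Bbc3 start had a GC content of 76.0%, against a median of 52.7% over all windows. The Runx motifs TGTGGT and TGCGGT were searched on both strands, and neither was in any of the 3 Bbc3 windows. This too says only that the letters are not in these windows. The windows begin at 16309333 or later, past the first annotated base of the gene (16308398). Mdm2, Mdm4, Ccng1 and Aen had a Runx motif in a window, while Cdkn1a, Phlda3 and Trp53 had none. Either motif was in 22.4% of all windows. A match is a description of letters and does not show binding.

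Total counts ran from 15715242 to 43758550 per library. Runx3 +/WRPW library 2 stood apart, with a count at 27414 genes against 17237 to 18967 in the other 4 libraries. Of 14743 genes without a count in those 4, it had one at 7350, which together held 0.472% of its counts. Levels are given as CPM, read counts relative to library size, scaled by the trimmed mean of M-values (TMM). The CD8 gene Cd8a was at 2202 and 2617 CPM in Runx3 +/+ and 2268 to 2635 CPM in Runx3 +/WRPW, while Cd4 was at 0.467 and 5.36 CPM in Runx3 +/+ libraries 1 and 2 and at 0.160, 0.374 and 0.0460 CPM in Runx3 +/WRPW (log2 fold change -3.97 ± 1.15 SE, edgeR adjusted p = 0.0743). Cd8b1 ran from 765 to 1279 CPM, Cd3e from 709 to 996 CPM and Runx3 from 273 to 422 CPM. Marker sums in CPM for Runx3 +/+ and Runx3 +/WRPW were 9.76 to 9.79 and 3.17 to 12.6 for 6 B cell genes, and 54.5 to 63.4 and 57.4 to 101.5 for 8 myeloid genes. They were 49.4 to 89.2 and 38.0 to 52.3 for 6 NK genes, 6.16 to 7.11 and 4.66 to 18.4 for 6 epithelial or stromal genes, and at most 0.869 for 6 erythroid genes. The B cell sum of 12.6 and the epithelial or stromal sum of 18.4 were those of Runx3 +/WRPW library 2. Runx3 +/WRPW libraries 1 and 3 were at 4.32 and 3.17 CPM for the B cell genes, and at 4.66 and 5.20 CPM for the epithelial or stromal genes. Library 2 had 7.22 CPM of Ebf1 and 4.67 CPM of Foxn1, against at most 0.138 and 0.0460 CPM elsewhere. The gamma delta list had a row for 3 of 5 genes, with at most 3.43 CPM, and 7 immature thymocyte genes summed to 61.0 to 64.1 and 40.3 to 45.0 CPM. Among all these marker genes, those called were Cd79b, Dntt and, among 9 genes of CD8 SP T cells, Cd3d, each as lower in Runx3 +/WRPW. Of the tested markers that were not called, Cd3e, Cd3g, Cd5, Lck, Thy1, Cd4, Cd24a, Cd1d1 and Cd79a also had lower values in every Runx3 +/WRPW library than in either Runx3 +/+ library. Their log2 fold changes ran from -3.97 (Cd4) to -0.12 (Lck). H2-Aa had higher values in the same way (log2 fold change 1.55, edgeR adjusted p = 0.124). Over all genes tested, 23.8% were lower and 24.7% higher without overlap, and 7.33% were called as lower. The erythroid genes Hba-a1 and Hba-a2 were at 0 counts in all 5 libraries. The part of other cells in the results was not tested.

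Bbc3 was about 4-fold higher in Runx3 +/WRPW, and none of the 8 other p53 genes that could be tested passed the test. Bbc3 (chromosome 7, 16308398 to 16318334, mm10) measured 12.9 and 13.7 CPM in wild type, against 61.1, 66.4 and 31.4 CPM in Runx3 +/WRPW libraries 1, 2 and 3. All 3 Runx3 +/WRPW libraries were above both Runx3 +/+ libraries, the nearest by 2.29-fold, and library 3 was the lowest of its genotype. The fitted log2 fold change, Runx3 +/WRPW over Runx3 +/+, was 1.99 ± 0.33 (SE), or 3.97-fold, and exceeded that of 97.0% of the 13666 genes tested. The Runx3 +/+ libraries differed by 1.06-fold. The spread among the Runx3 +/WRPW libraries, a coefficient of variation of 35.6%, was well above the 3.04% that counting error alone would give. In bulk RNA, more cells with the transcript and more transcript per cell cannot be told apart.

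**Figure D1:**
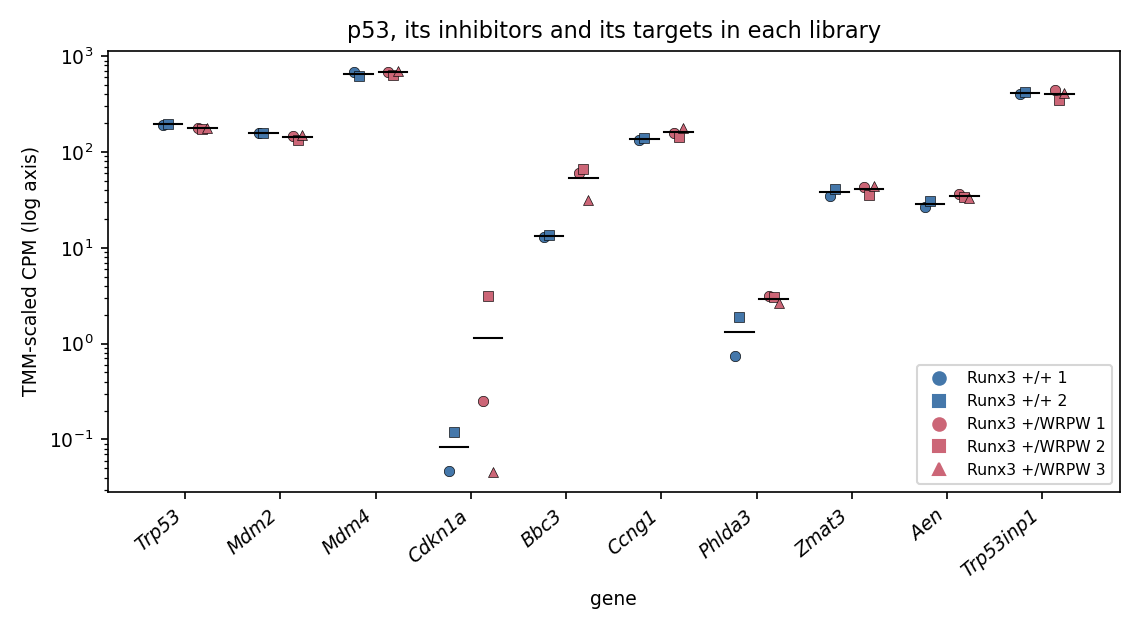
TMM-scaled CPM on a log axis for the 10 p53 genes, with Runx3 +/+ libraries in blue, Runx3 +/WRPW libraries in red, the marker shape giving the library number and the bar the mean of a genotype. Bbc3 is at 12.9 and 13.7 CPM in Runx3 +/+ and between 31.4 and 66.4 CPM in Runx3 +/WRPW, and the point of Runx3 +/WRPW library 2 stands apart for Cdkn1a.

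Of the other 9 members, 8 passed the filter on low counts, and 0 of those 8 were called at an adjusted p under 0.05 in edgeR's quasi-likelihood test with Benjamini-Hochberg adjustment over all genes. Of all genes tested, 13.6% were called, 6.24% as higher and 7.33% as lower. At an unadjusted p under 0.05 there were 3 of the 8 (Phlda3, Trp53 and Aen), against 29.8% of all genes. DESeq2 and limma-voom also called 0, as did each of the other alternatives tried, the fits without 1 library included. The 8 log2 fold changes ran from -0.14 to 1.16, with 5 above and 3 below 0 and a median of 0.08, beside 0.02 over all genes tested. CPM did not overlap between the genotypes for 3 of the 8 as higher (Ccng1, Phlda3 and Aen) and for 2 as lower (Trp53 and Mdm2), against 24.7% and 23.8% of all genes.

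**Figure D2:**
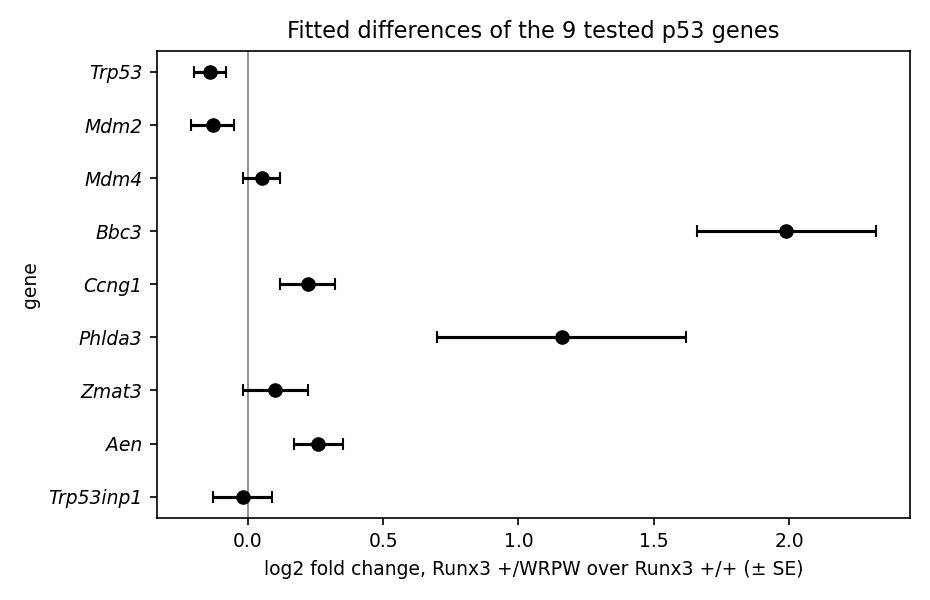
Fitted log2 fold changes of Runx3 +/WRPW over Runx3 +/+ with standard errors for the 9 p53 genes that passed the count filter. Bbc3 lies at 1.99, Phlda3 at 1.16 with the widest error of 0.46, and the other 7 lie between -0.14 and 0.26.

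Trp53 itself, the gene of the factor, did not pass the test. It (chromosome 11, 69580348 to 69591873) was at 193 and 196 CPM in Runx3 +/+ and at 179, 175 and 177 CPM in Runx3 +/WRPW. The libraries of each genotype lay close together, with a coefficient of variation of 0.955% and 1.04%, and the genotypes did not overlap. The log2 fold change was -0.14 ± 0.06 (SE), with a 95% interval of -0.27 to 0.00, and did not pass (edgeR adjusted p = 0.165). The adjusted p ranged from 0.0698 in DESeq2 to 0.595 over the 12 alternatives.

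Neither inhibitor gene passed the test. Mdm2 (chromosome 10, 117688875 to 117710758), the p53 target that also limits p53, was at 158 and 156 CPM in Runx3 +/+ and at 149, 132 and 151 CPM in Runx3 +/WRPW. Library 2 was the lowest of the 5, and the genotypes were separated by 1.03-fold only. Its log2 fold change was -0.13 ± 0.08 (SE), with a 95% interval of -0.31 to 0.06 (edgeR adjusted p = 0.324). Mdm4 (chromosome 1, 132986105 to 133030587), which binds and inhibits p53 without degrading it, was at 679 and 628 CPM in Runx3 +/+ and at 683, 643 and 704 CPM in Runx3 +/WRPW. Its libraries overlapped, and the log2 fold change was 0.05 ± 0.07 (SE), with a 95% interval of -0.13 to 0.23 (edgeR adjusted p = 0.698).

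Among the other targets of cell death and survival, Phlda3 and Aen had higher values in all 3 Runx3 +/WRPW libraries but did not pass the test. Phlda3 (chromosome 1, 135766085 to 135769134), which encodes a repressor of Akt signalling, had 16 and 47 counts in Runx3 +/+ and 136, 49 and 58 in Runx3 +/WRPW. These were 0.747 and 1.88 CPM against 3.11, 3.05 and 2.67 CPM, so the genotypes did not overlap, while the Runx3 +/+ libraries differed by 2.51-fold. The log2 fold change of 1.16 ± 0.46 (SE) had a 95% interval of 0.04 to 2.27 (edgeR adjusted p = 0.156). Leaving out Runx3 +/+ library 1 gave 0.61 and leaving out library 2 gave 1.96, the ends of its range over the alternatives. Aen (chromosome 7, 78895927 to 78911209), a nuclease gene of apoptosis, was at 26.9 and 30.5 CPM against 36.2, 34.1 and 32.7 CPM. Here too the genotypes did not overlap, with a log2 fold change of 0.26 ± 0.09 (SE) and a 95% interval of 0.04 to 0.49 (edgeR adjusted p = 0.122).

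Trp53inp1 and Zmat3 overlapped between the genotypes. Trp53inp1 (chromosome 4, 11156441 to 11174379), which encodes a stress-induced nuclear protein that acts with p53, was at 400 and 419 CPM in Runx3 +/+ and at 441, 353 and 418 CPM in Runx3 +/WRPW. Its lowest and highest values were both in Runx3 +/WRPW, in libraries 2 and 1. The log2 fold change was -0.02 ± 0.11 (SE), with a 95% interval of -0.27 to 0.24 (edgeR adjusted p = 0.933). Zmat3 (chromosome 3, 32334792 to 32365665), a zinc finger protein that binds RNA, was at 34.9 and 41.5 CPM against 43.2, 35.7 and 44.0 CPM. Its log2 fold change was 0.10 ± 0.12 (SE), with a 95% interval of -0.20 to 0.40 (edgeR adjusted p = 0.637).

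The cell cycle targets differed in level by orders of magnitude. Ccng1 (chromosome 11, 40748552 to 40755309), which encodes cyclin G1, was at 133 and 142 CPM in Runx3 +/+ and at 156, 144 and 179 CPM in Runx3 +/WRPW. The genotypes were separated by 1.02-fold only, with a log2 fold change of 0.22 ± 0.10 (SE) and a 95% interval of -0.03 to 0.47 (edgeR adjusted p = 0.213). Cdkn1a (chromosome 17, 29090979 to 29100722), the textbook target of p53 in arrest, had 1 and 3 counts in Runx3 +/+ and 11, 50 and 1 in Runx3 +/WRPW, and did not pass the count filter.

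Most of the Cdkn1a counts were thus in Runx3 +/WRPW library 2, at 3.11 CPM (95% Poisson interval 2.31 to 4.11), against 0.251 CPM or less in the other 4 libraries. The interval covers counting error only. Per kb of exon this was 0.876 CPM. It was above 95.4% of the 9314 genes with a known exon length and no count in the other 4 libraries, measured in library 2. The median of those genes in library 2 was 0, so many of them had no count there either. In the 3 alternative fits that kept Cdkn1a, all with library 2, its log2 fold change was 3.13 to 4.43, above that of Bbc3, with an edgeR adjusted p of 0.498 to 0.646. Bbc3 stood at 31.3 CPM per kb in that library, and without library 2 its log2 fold change was 1.80. The part of the stray counts of library 2 in Cdkn1a was not tested. In GENCODE M21, Cdkn1a shares 273 exon bases with an unnamed model on the other strand, and none of the other 9 genes shares exon bases with another gene.

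Per kb of exon, the wild-type order ran from Trp53inp1 (63.2 CPM per kb) over Trp53 (48.1), Mdm4 (44.2), Ccng1 (39.1) and Mdm2 (31.0) to Bbc3 (6.27), Aen (4.94), Zmat3 (3.34), Phlda3 (0.842) and Cdkn1a (0.0235). In Runx3 +/WRPW, Bbc3 was at 24.9 ± 8.88 CPM per kb (SD, n = 3), next to Mdm2 at 28.3 ± 2.02, and these neighbours did not differ beyond their spread. Likewise Trp53 (43.7 ± 0.454), Mdm4 (45.7 ± 2.09) and Ccng1 (45.5 ± 5.13) could not be put in order in Runx3 +/WRPW. By mean level Bbc3 stood between Mdm2 and Aen in both genotypes.

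Set against the 6 other target genes in each library, Bbc3 stood higher in every Runx3 +/WRPW library than in either Runx3 +/+ library. The log2 level of Bbc3 minus the mean log2 level of Cdkn1a, Ccng1, Phlda3, Zmat3, Aen and Trp53inp1, on the scale of log2(CPM + 0.5), was -0.43 and -0.63 in Runx3 +/+. It was 1.25, 1.13 and 0.41 in Runx3 +/WRPW libraries 1, 2 and 3, a difference of 1.46 between the genotype means. Without Cdkn1a, an alternative chosen after seeing the data, the values were -1.44 and -1.66 against 0.23, 0.51 and -0.68, a difference of 1.57. The genotypes did not overlap either way, which the rise for which Bbc3 was chosen largely fixed in advance. The values add no support beyond that rise, and no p is given.

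**Figure D3:**
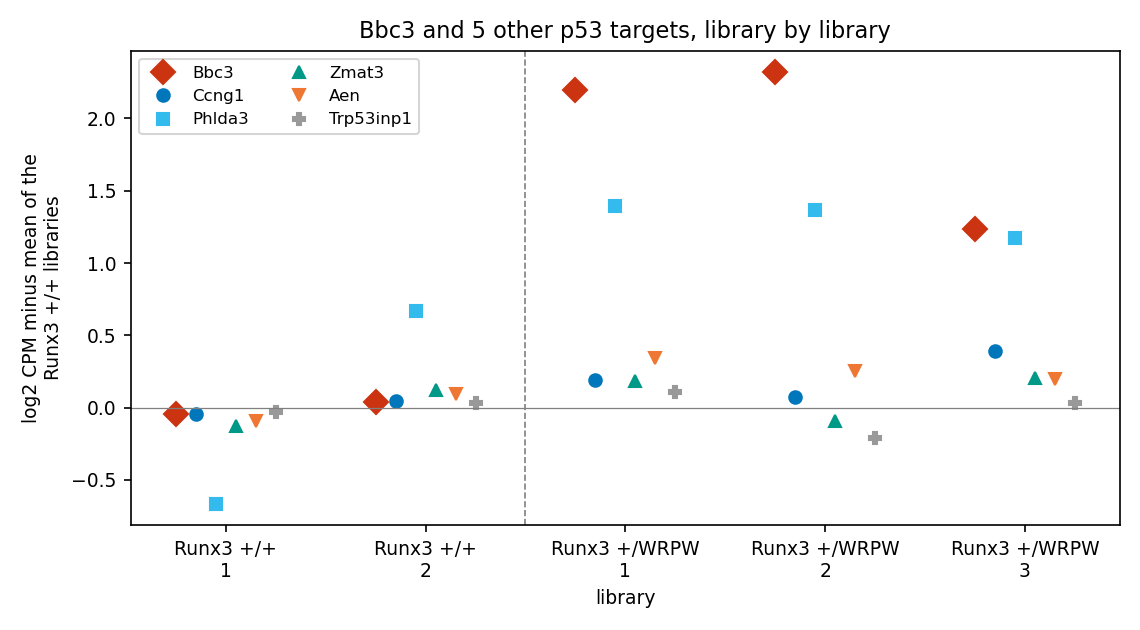
log2 CPM of Bbc3 and of 5 other p53 targets in each library, minus the mean of the Runx3 +/+ libraries for that gene; Cdkn1a is left out because its counts are near 0. In the Runx3 +/WRPW libraries Bbc3 is on top, though nearly level with Phlda3 in library 3. Phlda3 starts from a low and uneven wild-type level, and Ccng1, Zmat3, Aen and Trp53inp1 lie close to 0.

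The 5 genes nearest to Bbc3 in pattern are given as a description. Likeness was the root mean square difference in centred log2 CPM over the 5 libraries. It was taken among 10273 genes with a mean log2 level of at least 1 over all libraries. The measure takes in the size of the rise for which Bbc3 was chosen, so genes with small changes ranked far away by construction. The nearest were Sepn1 (selenoprotein N, 0.18), Tmevpg1 (a noncoding RNA gene near Ifng, 0.19), Mical2 (an actin-regulating monooxygenase, 0.20), Nfix (a nuclear factor I transcription factor, 0.21) and Klf9 (a Kruppel-like factor, 0.21). Nfix, for example, was at 8.03 and 5.79 CPM in Runx3 +/+ and at 28.3, 29.9 and 18.1 CPM in Runx3 +/WRPW, again lowest in library 3 of that genotype. Of the p53 genes, Phlda3 ranked 259 by this measure (0.60) and Aen 1578 (0.86). The other 6 with a value ranked from 2988 (Ccng1) to 7369 (Mdm2). Sepn1, Tmevpg1 and Mical2 were at 0.440 to 1.60 CPM in Runx3 +/+ and reached the minimum level only through Runx3 +/WRPW. These distances are a description over 5 libraries and no test of the p53 genes.

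The neighbours of Bbc3 on chromosome 7 were looked at after the values of Bbc3 were known. The 3 nearest tested genes on each side (Dhx34, Inafm1, Ccdc9, Sae1, Zc3h4 and Tmem160) lay within 134.4 kb and had log2 fold changes from -0.22 to 0.26, none of them called. Sae1, which encodes a subunit of the SUMO-activating enzyme and lies 1.90 kb from Bbc3, was at 102 to 104 CPM in Runx3 +/+ and 94.7 to 99.7 CPM in Runx3 +/WRPW (log2 fold change -0.08 ± 0.06 SE, edgeR adjusted p = 0.392).

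A longer list of p53 targets moved in both directions. Of 30 further targets, 24 were tested, of which 3 were higher, 5 lower and 16 not called. That is 33.3% called, beside 13.6% of all genes tested (6.24% higher and 7.33% lower), and the list's median log2 fold change was -0.09. Xpc, a sensor of DNA damage in excision repair, fell from 75.8 and 79.9 CPM to 58.8, 62.1 and 60.8 CPM (log2 fold change -0.36 ± 0.06 SE, edgeR adjusted p = 0.016). Btg2, an antiproliferative gene, fell from 169 and 234 CPM to 121, 128 and 112 CPM (log2 fold change -0.74 ± 0.14 SE, edgeR adjusted p = 0.0229). Gtse1, which restrains p53 in G2 phase, fell by 1.07 on the log2 scale (edgeR adjusted p = 0.0191), and Sfn, which encodes 14-3-3 sigma, fell by 0.59 (edgeR adjusted p = 0.0258).

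The remaining 4 called targets were chosen for naming after their values were seen. The death receptor gene Tnfrsf10b rose by 1.76-fold, from 4.68 and 5.65 CPM to between 7.91 and 10.2 CPM (edgeR adjusted p = 0.0359). Rrm2b, a ribonucleotide reductase subunit for DNA repair, rose by 1.30-fold and Ei24 by 1.26-fold, while Pidd1, a death domain gene, fell by 0.39 on the log2 scale. Bax, the effector of mitochondrial death, was at 68.3 and 68.2 CPM against 78.9, 79.7 and 75.9 CPM (edgeR adjusted p = 0.0779), and Fas at 78.6 and 86.5 against 86.4, 71.0 and 85.1 CPM (edgeR adjusted p = 0.886). Gdf15 and Rprm had 0 counts in all libraries, which allows up to 0.0686 to 0.187 CPM per library at 3 counts. The number called depended on the library left out. Without Runx3 +/WRPW library 1 or library 3, 0 of the list were called, where 768 and 950 of all genes were, against 1855 with all libraries. Without Runx3 +/WRPW library 2 there were 6, 1 higher and 5 lower, beside 1431 of all genes. On leaving out Runx3 +/+ library 1 or 2, the log2 fold change of Btg2 was -0.99 or -0.50 and that of Sfn -0.75 or -0.46.

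Most genes that act on p53 did not pass the test. Of 22 listed regulators, 21 had a row and 18 were tested, with 2 higher, 1 lower and 15 not called (16.7% called, beside 13.6% of all genes, and a median log2 fold change of 0.03). The count called was 6 in DESeq2 (3 higher and 3 lower, with Chek1, Usp7 and Hipk2 added), 5 in limma-voom, 4 with the filter of 1 CPM, and 0 without a count filter. Trp53bp1, a DNA damage adaptor that binds p53, rose from 117 and 115 CPM to 151, 140 and 152 CPM (log2 fold change 0.35 ± 0.06 SE, edgeR adjusted p = 0.0207). Rpl5, a ribosomal protein that can bind Mdm2, rose by 1.25-fold (edgeR adjusted p = 0.0312), though its count is uncertain, since any reads shared with its pseudogenes could have been lost or split. Ppp1r13b, which encodes the p53 cofactor ASPP1, fell from 117 and 133 CPM to 105, 90.7 and 92.5 CPM (edgeR adjusted p = 0.0425). These 3 calls were lost without any one of the libraries other than Runx3 +/WRPW library 2, and that of Ppp1r13b also without library 2. The damage kinase gene Atm, named after its values were seen, was at 295 and 286 CPM against 313, 277 and 305 CPM (edgeR adjusted p = 0.8).

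In the Bcl-2 family, the partners of PUMA, a pro-death and a survival gene rose together. Of 17 genes besides Bbc3, 14 were tested, with 2 higher, 1 lower and 11 not called. That is 21.4% called, beside 13.6% of all genes tested (6.24% higher and 7.33% lower), with a median log2 fold change of 0.08. Bcl2l11, which encodes the BH3-only protein BIM, was at 114 and 85.3 CPM in Runx3 +/+ and at 231, 249.5 and 199 CPM in Runx3 +/WRPW (log2 fold change 1.18 ± 0.16 SE, edgeR adjusted p = 0.00753). Bcl2, the survival protein that both PUMA and BIM bind, was at 538 and 373 CPM against 914, 1020 and 1032 CPM (log2 fold change 1.12 ± 0.16 SE, edgeR adjusted p = 0.0105). The 2 genes separated the genotypes by 1.74-fold and 1.70-fold.

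Bak1, an effector of mitochondrial death, fell from 70.6 and 65.9 CPM to 52.8, 53.8 and 51.3 CPM (log2 fold change -0.37 ± 0.06 SE, edgeR adjusted p = 0.0165). Other BH3-only genes, named after their values were seen, did not pass. Bmf was at 34.4 and 21.1 CPM against 14.1, 15.7 and 7.82 CPM (edgeR adjusted p = 0.0729, though DESeq2 called it as lower), and Pmaip1, which encodes the p53-inducible protein NOXA, was at 2.47 and 5.20 against 1.97, 3.49 and 1.79 CPM (edgeR adjusted p = 0.379). Per kb of exon in Runx3 +/WRPW, Bbc3 at 24.9 ± 8.88 CPM (SD, n = 3) stood near Bcl2l11 at 28.2 ± 3.21 CPM, against 6.27 and 12.4 CPM in Runx3 +/+. The call of Bak1 was lost without any library other than Runx3 +/WRPW library 2, and that of Bcl2l11 without Runx3 +/+ library 2 (edgeR adjusted p = 0.0781).

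**Figure D4:**
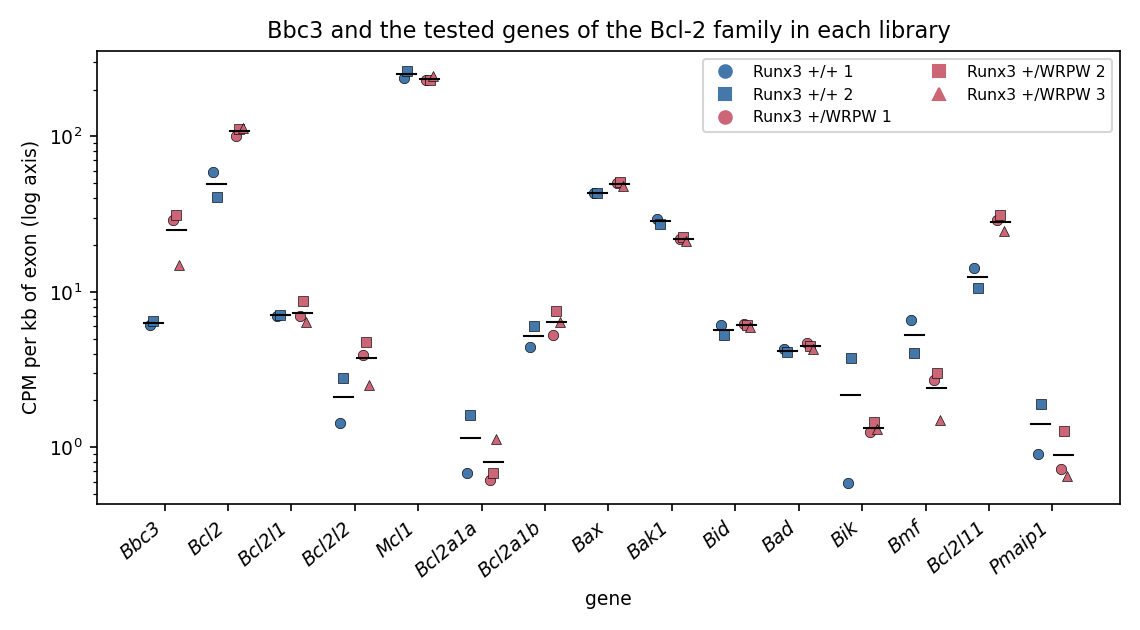
CPM per kb of exon on a log axis for Bbc3 and the 14 tested genes of the Bcl-2 family, with Runx3 +/+ libraries in blue, Runx3 +/WRPW libraries in red and bars for the means. Bbc3, Bcl2 and Bcl2l11 are higher in all Runx3 +/WRPW libraries, as are Bax and Bad by narrower gaps (1.11-fold and 1.01-fold). Bak1 and Bmf are lower in all of them, and Mcl1 is the most abundant gene in both genotypes. Of the family genes besides Bbc3, only Bcl2, Bcl2l11 and Bak1 were called.

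Of 9 factors other than p53 that are known to act on Bbc3, 7 were tested, with 0 higher, 2 lower and 5 not called. That is 28.6% called, beside 13.6% of all genes tested (6.24% higher and 7.33% lower), with a median log2 fold change of -0.13. Foxo1, a FoxO factor of naive T cells, fell from 386 and 412 CPM to 266, 233 and 252 CPM (log2 fold change -0.67 ± 0.08 SE, edgeR adjusted p = 0.0054). E2f1, which drives entry into S phase, fell from 32.5 and 34.5 CPM to 17.4, 17.0 and 15.4 CPM (log2 fold change -1.01 ± 0.10 SE, edgeR adjusted p = 0.00309). The call of Foxo1 was lost without either Runx3 +/+ library. Among those not called and named after their values were seen, Foxo3 was at 152 and 146 CPM against 148, 137 and 147 CPM (edgeR adjusted p = 0.695). Nr3c1, the glucocorticoid receptor gene, was at 195 and 219 CPM against 284, 250 and 330 CPM (edgeR adjusted p = 0.062). Nr3c1 was called as higher in DESeq2, with upper-quartile factors, with the filter of 1 CPM and without Runx3 +/WRPW library 2.

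Genes of cell division fell. As background, such genes can be lowered through p21, and the part of p21 here was not tested. Of 16 such genes, all tested, 15 were called as lower, 0 as higher and 1 was not called, with a median log2 fold change of -2.12. The share called was 93.8%, beside 13.6% of all genes tested (6.24% higher and 7.33% lower). That list overlaps the cell cycle genes already known to fall in these data, so it is no independent support. It also holds E2f1, given above among the factors that act on Bbc3. Mki67, the gene of the proliferation marker Ki-67, went from 244 and 254 CPM to 30.3, 32.1 and 32.98 CPM (edgeR adjusted p = 5.19e-05), and Top2a from 222 and 245 CPM to 33.6, 32.6 and 36.1 CPM (edgeR adjusted p = 7.08e-05). Cdk1, the kinase of mitotic entry, fell by 2.59 and Bub1b, a checkpoint kinase gene, by 2.38 on the log2 scale (edgeR adjusted p = 0.00122 and 0.00145). Without Runx3 +/+ library 2, 7 of the 16 were called, and without Runx3 +/WRPW library 2 all 16.

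**Figure D5:**
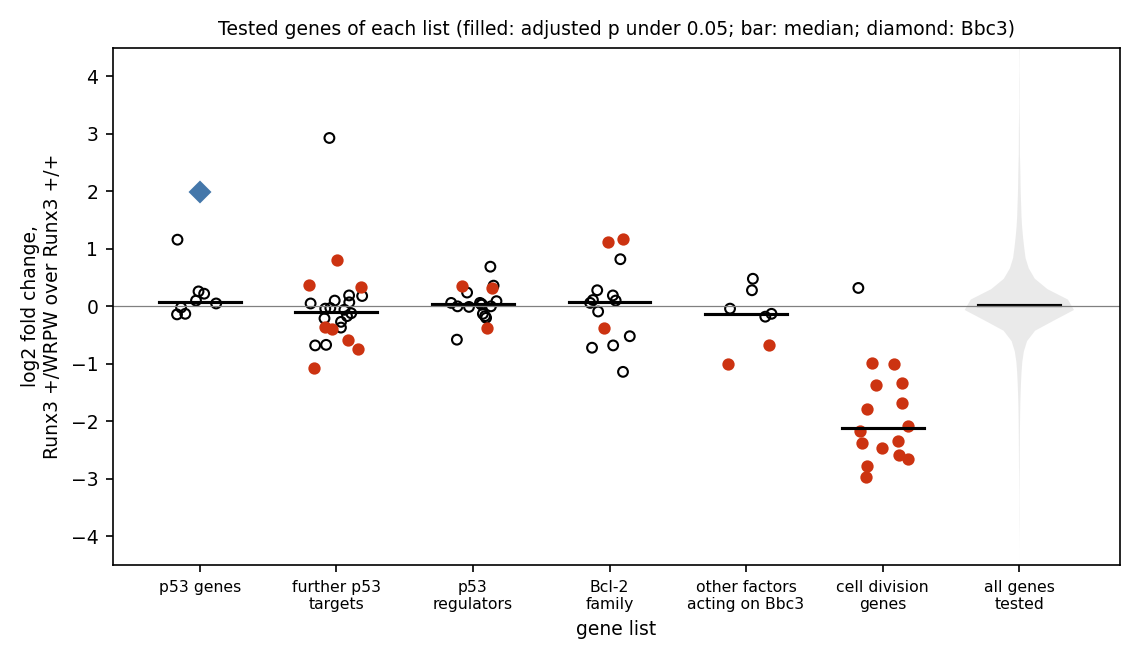
log2 fold changes of Runx3 +/WRPW over Runx3 +/+ for the tested genes of 6 lists, filled where the edgeR adjusted p is under 0.05, with the median as a bar; the diamond is Bbc3, which has no test, and the grey outline is the distribution of all 13666 genes, cut at the ends of the axis. The medians of the lists lie between -0.13 and 0.08 except that of the cell division genes at -2.12.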

How the data were processed

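Each of the 5 deposited files holds unnormalized read counts by gene symbol for 1 library. The submitters' processing notes name HISAT2 2.2.1, cutadapt 4.0, edgeR 3.36.0 and featureCounts 2.0.8, and the build mm10. The annotation, the strand setting and how multiply matching reads were treated: not given in the sources used here. Any reads shared with near-identical genes or pseudogenes could be lost or split. Samples were grouped by the sample records, although the column header of Runx3 +/+ library 2 bears another number and that of Runx3 +/WRPW library 2 names none. No pair of libraries agreed within sampling noise (smallest chi-square per gene 14.2).

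The genotypes were compared with edgeR 4.0.16 in R 4.3.3 (filterByExpr with a minimum count of 10, TMM factors of 0.981 to 1.034, glmQLFit and glmQLFTest, Benjamini-Hochberg adjustment over 13666 genes, no covariate). Standard errors were taken as the size of the log2 fold change over the root of F, and 95% intervals use the degrees of freedom of that test. Levels are counts over effective library sizes, so the floor of 3 counts is 0.0686 to 0.187 CPM per library and covers counting error only. Exon lengths and overlaps came from GENCODE M21, and positions and promoters from RefSeq GRCm38.p6.

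Named were all 10 members, up to 4 called genes with the smallest p-values per list (other names are marked in the text), Cd8a, Cd8b1, Cd3e, Cd4 and Runx3 as a check of the cells, and the 5 genes nearest to Bbc3 among non-predicted genes with a mean log2 level of at least 1. Members and lists were chosen with earlier results of these data known. The alternatives tried were DESeq2 1.42.0, limma-voom (limma 3.58.1), upper-quartile and RLE factors, no count filter, 1 CPM in every library of a genotype, the replicate number as a block, and leaving out each library. The fit and the motif search were tested on simulated data. In the simulated counts the fit called 59.6% of the 2-fold and 100% of the 4-fold changes, with 4 false among 161 calls. A change of about 2-fold can thus be missed with these numbers of libraries.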

Additional observations from a re-analysis of the deposited data

How the results depend on the processing

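The log2 fold change of Bbc3 stayed between 1.80 and 2.26 over 12 alternatives, and the number of other p53 genes called was 0 in each of them. The distance of Bbc3 from the other targets stayed between 1.30 and 1.72 with another pseudocount, with 1 library left out or without Cdkn1a, the settings tried for it. It holds the rise for which Bbc3 was chosen, so this range is a description too. The number of genes called was 1855, against 1079 without a count filter, where 28583 genes were tested, and 277 to 1431 with 1 library left out. With a lone Runx3 +/+ library, that library is assumed to vary like the other genotype. The 8 calls among further p53 targets became 3 without the count filter and 0 to 6 with 1 library left out, and the sign of none of the 8 changed. With the replicate number as a block, 754 genes were called, with 0 further targets and 0 p53 regulators. The labels do not say that a number is shared between the genotypes, so the block is not known to be a paired analysis. Deviations of same-numbered libraries correlated at -0.033 and 0.011 over genes. The deviations of the 2 Runx3 +/+ libraries mirror each other, so these values cannot decide whether libraries were paired. Small differences changed sign in some fits: Mdm4 (-0.01 to 0.08 with 1 library left out, the lowest without Runx3 +/+ library 2), Zmat3 (-0.05 to 0.23, the lowest without Runx3 +/+ library 1) and Trp53inp1 (-0.09 to 0.07). The last was at 0.01 with upper-quartile factors and on leaving out Runx3 +/+ library 2, and at 0.07 on leaving out Runx3 +/WRPW library 2. The cause of these changes was not tested. At the depth of these libraries, Cdkn1a did not pass the count filter with all libraries in, and the interval of Phlda3 is wide.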

Other observations

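Some genes of the lists had their highest level in Runx3 +/WRPW library 2, as Cdkn1a did. Plk2, a polo-like kinase gene induced by p53, was at 4.30 CPM there and at most 0.374 CPM in the other 4 libraries. Hrk, a BH3-only gene of neurons, was at 2.93 CPM there, 0.0229 CPM in Runx3 +/WRPW library 1 and 0 in the other 3 libraries. Trp63, the p53 relative of epithelia, was at 2.37 CPM there and at most 0.234 CPM elsewhere, and Cdc25c, the 1 cell division gene not called, at 4.67 CPM there against 1.17 and 1.40 CPM in Runx3 +/+ and 0.206 and 0.0920 CPM in Runx3 +/WRPW libraries 1 and 3. Dcxr, a carbonyl reductase gene listed among the p53 targets, showed another pattern, with 0.280 and 0.0400 CPM in Runx3 +/+ and 1.44, 1.25 and 0.966 CPM in Runx3 +/WRPW (log2 fold change 2.93 ± 0.81 SE, edgeR adjusted p = 0.0662), and it was called as higher in DESeq2. All of them were picked for naming with their values in view.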
